A study of Homo sapiens with 6 samples.

Results

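The genes of respiratory complex I were examined in HAP1 cells with and without DEGS1. The members were all rows of the deposited count table whose symbol starts with NDUF, followed by A, AB, AF, B, C, S or V and a number. This gave 45 genes of the 35238 symbols in the table. All 45 had counts above 0 in each library and all 45 passed the filter on low counts, as did 16954 genes in all. RNA was sequenced from 6 libraries of HAP1, an established, near-haploid human cell line. There were 3 wildtype libraries and 3 libraries with the genotype DEGS1 knockout, and both groups were untreated and otherwise handled alike. DEGS1 is the desaturase that makes ceramide from dihydroceramide, and the series asks what its loss does to the cell. The sources used here give neither the number of knockout clones nor whether replicates were separate cultures, and p-values thus measure a spread between libraries that may be technical.

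Complex I is the entry point of the mitochondrial respiratory chain. It takes electrons from NADH through a flavin and a row of iron-sulfur clusters to ubiquinone, and pumps protons across the inner membrane. Its matrix arm carries the electron path, and its membrane arm holds the pumps, which are encoded by mitochondrial DNA, within a shell of nuclear-encoded accessory subunits. Assembly factors help to build the complex and are not part of the finished enzyme.

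DEGS1 itself, read first as a check of the labels, stood at 105, 123 and 95.5 CPM (read counts normalised for library size) in wildtype and at 9.49, 6.88 and 10.4 CPM in the knockout. It fell by 3.59 on the log2 scale (SE 0.17, edgeR quasi-likelihood test with Benjamini-Hochberg adjustment, adjusted p = 3.07e-07). Library totals were 17322756 to 28988522 counts, and the 45 genes took 0.307% to 0.334% of them. HAP1 derives from a leukaemia line, yet the blood markers HBG1, SPI1 and MPO had no counts in any library. The 8 blood markers summed to 13.7 to 22.4 CPM in wildtype and 5.03 to 5.95 CPM in the knockout, and HCLS1 was called lower by edgeR. Without HCLS1 the other 7 summed to 2.67 to 6.17 and 4.12 to 5.13 CPM, which overlapped. The 6 epithelial markers summed to 74.2 to 83.3 and 69.4 to 103 CPM, with EPCAM and CLDN1 called lower by edgeR and KRT19 at 0. KRT18 made up most of that sum, at 46.9, 58.0 and 48.3 against 75.2, 58.8 and 78.4 CPM, with all knockout libraries higher (adjusted p = 0.0794 by edgeR, 0.0370 by DESeq2 and 0.100 by limma). The 6 fibroblast markers (LUM at 0) summed to 6.17 to 11.1 and 9.60 to 11.6 CPM, and the 5 endothelial markers to 2.64 to 4.77 and 3.75 to 4.08 CPM. Of the 4 fibroblast markers tested, 3 were higher in the knockout and 1 lower. COL3A1, with low means of 0.17 and 0.77 CPM, had all knockout libraries higher. It differed by 2.08 on the log2 scale (adjusted p = 0.0560 by edgeR) and was called by limma but not by DESeq2. The part of these differences in the complex I values was not tested. In bulk RNA, fewer cells of a type and less RNA per cell cannot be told apart.

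The start regions of some members held a short run of letters that the symbol rule did not use. RefSeq promoter windows of GRCh38.p14, 250 bases before to 50 after a start, were found for 39 of the 45 genes. The letters AANATGGCG, which match the core bound by the transcription factor YY1, were searched on both strands. They stood in the windows of 11 of the 39 members (28.2%) and of 3.85% of all 27305 genes with a window. Those 27305 were not limited to expressed or protein-coding genes, while the members were all expressed. The median GC content of the windows was 60.3% for members and 58.7% for all. How far this unlike background accounts for the excess was not tested. These sites are shown because, of the motifs searched, their share among members exceeded that among all genes the most. Each is printed on the strand of its gene with up to 9 bases on either side, the matched letters in capitals. NDUFS1 and NDUFV2 carry the letters on the opposite strand, and the NDUFV2 site is at the edge of its window.
NDUFA6 (chr22:42090730-42090756, minus strand): tgctttggcAAGATGGCGgggagcggc
NDUFA7 (chr19:8321344-8321370, minus strand): cgcggacggAAGATGGCGtccgccacc
NDUFA9 (chr12:4649115-4649141, plus strand): ttgtgggaaAAGATGGCGgctgccgca
NDUFB8 (chr10:100529837-100529863, minus strand): aagaaggtgAAGATGGCGgtggccagg
NDUFS1 (chr2:206159412-206159438, minus strand): agccgaggcCGCCATATTgaataagcg
NDUFS3 (chr11:47579080-47579106, plus strand): catctgagtAACATGGCGgcggcggcg
NDUFS4 (chr5:53560651-53560677, plus strand): gcctgcagcAAGATGGCGgcggtgtca
NDUFS6 (chr5:1801406-1801432, plus strand): cagcggcgcAAAATGGCGgcggcgatg
NDUFS7 (chr19:1383915-1383941, plus strand): gccgaggccAAGATGGCGgtgctgtca
NDUFS8 (chr11:68030492-68030518, plus strand): ccccaaaccAACATGGCGgccccctac
NDUFV2 (chr18:9102731-9102748, plus strand): agtgtggccCGCCATGTT
In 10 of the 11 the first matched base lay 9 to 42 bases after the start, and NDUFS8 was the exception at 180 bases before it. All but NDUFB8 are subunits of the matrix arm. The letters also hold ATG, the codon at which translation starts. Whether matches after the start are there as start codons was not tested.

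The near-palindromic letters of the factor NRF1 (GCGC at either end of an A and any base) were in the windows of 7 of the 39 members (17.9%) and of 6.98% of all genes. They were found in NDUFA3, NDUFA8, NDUFA9, NDUFA11, NDUFA12, NDUFAF5 and NDUFB4. NDUFA9 alone held both kinds of letters, and 22 of the 39 held neither. The NRF1 letters of NDUFA9 lie on the opposite strand, so they are printed below as their reverse complement.
NDUFA9, NRF1 letters (chr12:4649025-4649052, plus strand): tcttggttaGCGCTTGCGCagacaggcg
The ETS core CCGGAAG was in 15.4% of members and 12.2% of all genes, and CCAAT in 28.2% and 39.7%. TATAAA was in 7.69% and 14.0%. Both strands were searched for each, and the matches in members did not overlap except for 2 NRF1 matches in NDUFA8. The window of NDUFS8 is shown as the 250 bases before its start because this gene had the second smallest p-value of the members. The capitals mark CCAAT on either strand and the YY1 letters, 5 matches in all.
NDUFS8 (chr11:68030431-68030680, plus strand): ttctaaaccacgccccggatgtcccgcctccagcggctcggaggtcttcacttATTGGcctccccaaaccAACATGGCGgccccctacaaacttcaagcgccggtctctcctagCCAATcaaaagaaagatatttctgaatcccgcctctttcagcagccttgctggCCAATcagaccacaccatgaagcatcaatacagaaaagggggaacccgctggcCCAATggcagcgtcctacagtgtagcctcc
The fold changes described next did not set the genes with these letters apart. The 11 genes with YY1 letters had a median log2 fold change of 0.07 and the 28 without had 0.09. The medians were 0.07 for the 7 genes with NRF1 letters and 0.09 for the 32 without. A match describes letters only, and no binding was measured.

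Of the 45 complex I genes, 1 rose in the knockout and none fell, by edgeR's quasi-likelihood test at an adjusted p under 0.05. Of all tested genes 4.46% were called in either direction, 1.51% higher and 2.95% lower. The gene that rose was NDUFC2. At an unadjusted p under 0.05 there were 4 members (8.89%) against 16.5% of all genes. The log2 fold change, given throughout as knockout over wildtype, was above 0 in 37 members and below 0 in 8, against 47.3% of all genes above 0. Its median was 0.08 over the members and -0.02 over all genes tested, and it ran from -0.19 in NDUFA10 to 0.56 in NDUFC2. The share of positive values moved with the scaling: 30 members were above 0 with library sizes alone and 38 with DESeq2 size factors. With chromosome medians removed 7 members changed sign and 32 were above 0. All 3 knockout libraries lay above all 3 wildtype libraries in 5 members, where 9.24% of all genes did so, and below them in 3, where 11.6% did.

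**Figure D1:**
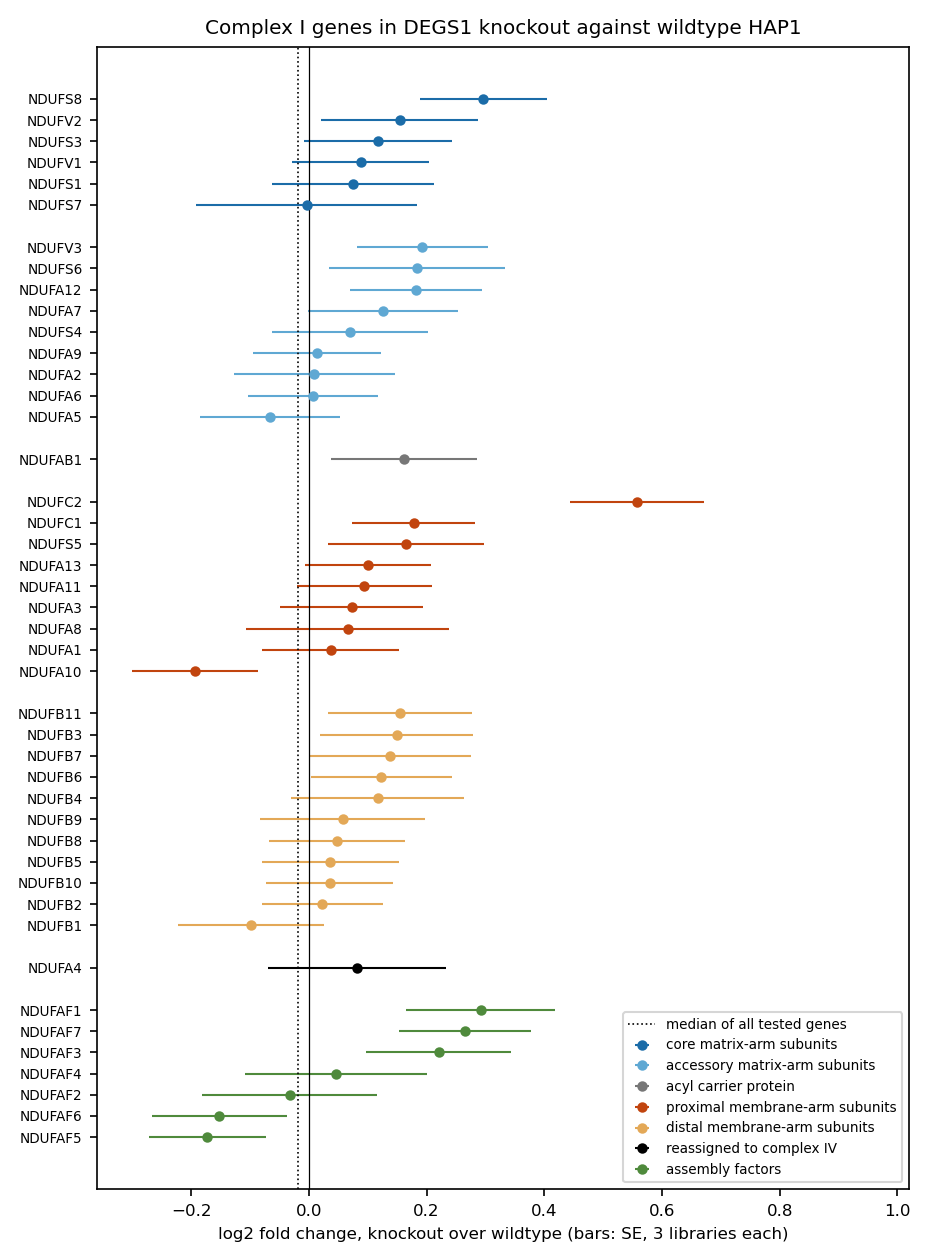
Log2 fold change of 44 of the 45 complex I genes, knockout over wildtype, with the standard error as bars (3 libraries per genotype), grouped by role in the complex; the dotted line is the median of all tested genes. NDUFC2 at 0.56 stands to the right of every other member, and the rest lie between -0.19 and 0.30.

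The core matrix-arm subunits carry the flavin and the iron-sulfur clusters, and 0 of the 7 passed edgeR's test, nor DESeq2's or limma's, with 1 at an unadjusted p under 0.05 in each. By edgeR 16.5% of all tested genes reached that cut-off, and the roles below are read beside the same share. Their median log2 fold change was 0.09, with 5 above 0 and 2 below. NDUFS8, which holds a pair of clusters near the end of the electron path, stood at 45.4, 43.9 and 43.7 CPM in wildtype and at 59.6, 48.4 and 55.5 CPM in the knockout. All knockout libraries were above the wildtype ones, although knockout replicate 2 was only slightly so. Its log2 fold change was 0.30 ± 0.11 (SE, adjusted p = 0.180 by edgeR). NDUFV2, beside the NADH site, had 122, 151 and 113 CPM against 132, 151 and 147 CPM, so that wildtype replicate 2 lay just above the highest knockout library.

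NDUFS1, the largest subunit with several clusters, had 298 ± 42.5 CPM in wildtype and 313 ± 21.9 CPM in the knockout (SD, n = 3). NDUFV1, which binds NADH and the flavin, was the steadiest of the 7 in wildtype, at 162, 159 and 161 CPM. The knockout had 189, 157 and 167 CPM and reached on either side of it. NDUFS7, the subunit with the last cluster, varied most of the 7, at 32.5, 25.3 and 35.0 CPM in wildtype and 40.4, 24.1 and 28.1 CPM in the knockout. Its groups overlapped widely around nearly equal means. NDUFS3 completed the group with 71.7 ± 11.1 CPM in wildtype and 77.8 ± 5.61 CPM in the knockout (SD, n = 3).

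Among the 9 accessory matrix-arm subunits 0 passed by edgeR, DESeq2 or limma, none had an unadjusted p under 0.05, 8 had a log2 fold change above 0, and the median was 0.07. NDUFV3, a small subunit beside the NADH-binding site, had 67.8, 79.9 and 65.3 CPM in wildtype and 84.9, 77.3 and 81.4 CPM in the knockout (log2 fold change 0.19 ± 0.11 SE, adjusted p = 0.428 by edgeR). One knockout value lay below wildtype replicate 2, so the groups overlapped. NDUFA12, which joins late in assembly, had 53.2, 65.3 and 53.2 CPM against 64.4, 63.0 and 67.4 CPM. NDUFS6, a zinc-binding subunit, had 35.8, 53.8 and 36.6 CPM against 47.9, 48.3 and 47.4 CPM. In both genes wildtype replicate 2 stood apart from the other wildtype libraries and overlapped or exceeded the knockout. The remaining 6 lay between -0.07 for NDUFA5 and 0.13 for NDUFA7. NDUFAB1, the mitochondrial acyl carrier protein, which is present as more than a single copy in the complex, had 113, 137 and 107 CPM against 124, 135 and 140 CPM (log2 fold change 0.16).

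In the membrane arm near the matrix arm, NDUFC2 was called and the other 8 of the 9 accessory subunits were not. NDUFC2 sits at the junction of the arms. It had 101, 114 and 97.6 CPM in wildtype and 162, 146 and 152 CPM in the knockout, from 1823 to 4172 counts per library. Each knockout library was above each wildtype one by a margin larger than the spread within either group. NDUFC2 rose by 0.56 on the log2 scale (± 0.11 SE, adjusted p = 0.0166 by edgeR), a mean of 104 ± 8.93 CPM against 153 ± 7.90 CPM (SD, n = 3) and a ratio of 1.47. It lost the call without wildtype replicate 1 (adjusted p = 0.110), wildtype replicate 3 (0.0557), knockout replicate 1 (0.0893) or knockout replicate 3 (0.0841), by edgeR, with values from 0.51 to 0.57.

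NDUFA10, a subunit related to nucleoside kinases, had the lowest log2 fold change of the 45. It stood at 119, 123 and 107 CPM in wildtype and at 98.9, 104 and 101 CPM in the knockout, and all knockout libraries were below all wildtype ones (log2 fold change -0.19 ± 0.11 SE, adjusted p = 0.403 by edgeR). NDUFC1, the small partner of NDUFC2, had 45.8, 53.6 and 47.6 CPM against 52.9, 56.7 and 56.7 CPM. The knockout library lowest in NDUFC1 lay just below wildtype replicate 2. The other 6 of this region (NDUFA1, NDUFA3, NDUFA8, NDUFA11, NDUFA13 and NDUFS5) lay between 0.04 and 0.17.

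The 11 subunits of the distal membrane arm, NDUFB1 to NDUFB11, gave 0 calls by edgeR, DESeq2 or limma and none at an unadjusted p under 0.05. Their log2 fold changes ran from -0.10 in NDUFB1 to 0.15 in NDUFB11, with a median of 0.06. With chromosome medians removed NDUFB1 turned to 0.09, and NDUFB2, NDUFB5 and NDUFB8 turned to just below 0. NDUFB11 had 72.5 ± 9.31 CPM in wildtype and 80.7 ± 7.39 CPM in the knockout (SD, n = 3). NDUFB3 had 44.1, 55.7 and 41.9 against 47.4, 52.2 and 57.6 CPM, and NDUFB6 had 48.9, 58.3 and 43.8 against 53.3, 57.2 and 54.1 CPM. In NDUFB3 wildtype replicate 2 lay within the knockout range and in NDUFB6 above it. NDUFA4, now counted as a subunit of complex IV though its name is kept here, had 146, 193 and 131 CPM against 150, 172 and 175 CPM, and its groups overlapped.

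The 7 assembly factors were split between higher and lower values. None was called by edgeR, DESeq2 or limma. EdgeR gave 2 an unadjusted p under 0.05 (NDUFAF1 and NDUFAF7), where 16.5% of all tested genes had one. NDUFAF1, NDUFAF3 and NDUFAF7 had all knockout libraries above wildtype, and NDUFAF5 and NDUFAF6 had all below. Of all tested genes 9.24% lay above in this way and 11.6% below. NDUFAF1, a chaperone of the early membrane-arm intermediate, had 16.5, 16.3 and 15.4 CPM in wildtype and 18.9, 18.5 and 21.5 CPM in the knockout (log2 fold change 0.29 ± 0.13 SE, adjusted p = 0.273 by edgeR). NDUFAF7, an arginine methyltransferase of the mitochondrial matrix, had 33.3, 39.9 and 33.6 CPM against 42.6, 40.8 and 45.0 CPM (0.26, SE 0.11, adjusted p = 0.259). NDUFAF3, which works with NDUFAF4, had 18.7, 19.9 and 16.8 CPM against 21.5, 21.1 and 22.1 CPM. In each of these the gap between the groups was smaller than the range of the wider group. NDUFAF5, a hydroxylase that acts on NDUFS7, had 46.7, 48.4 and 45.9 CPM against 41.6, 39.5 and 44.0 CPM, a log2 fold change of -0.17 ± 0.10 (SE, adjusted p = 0.427 by edgeR). NDUFAF6, with 22.8, 24.7 and 22.7 CPM against 20.6, 21.7 and 21.0 CPM, had -0.15. NDUFAF2 and NDUFAF4 overlapped between the groups.

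**Figure D2:**
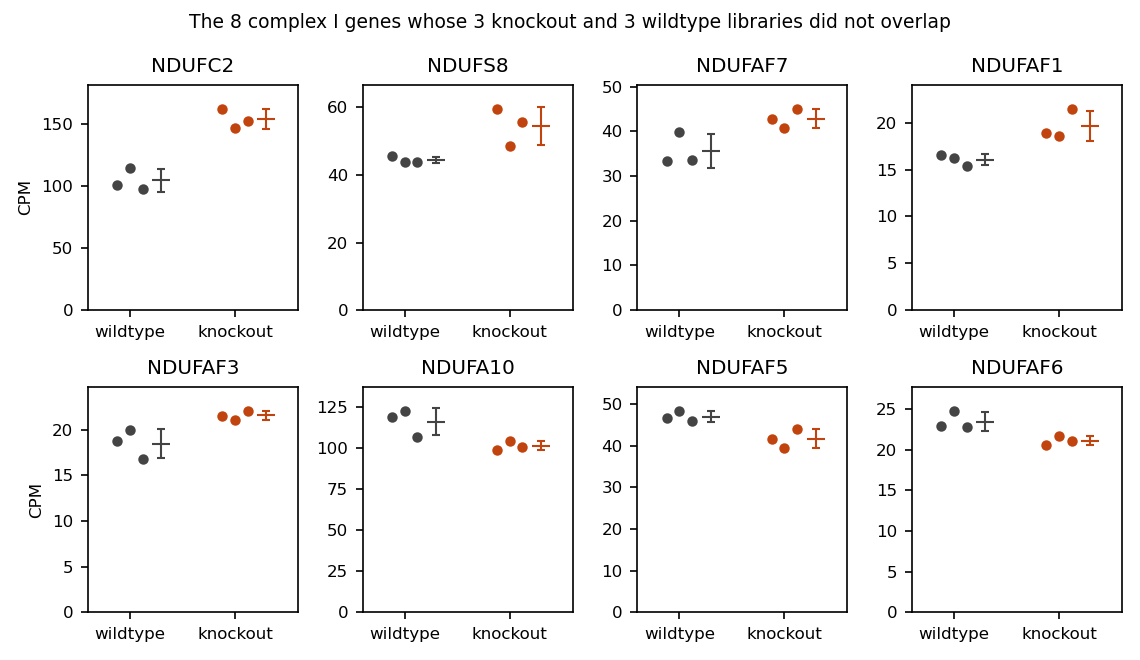
CPM in each library (points) with the mean and SD of 3 libraries beside them, for the 8 members whose groups did not overlap; each vertical axis starts at 0. Of the 8 NDUFC2 was called, at 97.6 to 114 CPM in wildtype and 146 to 162 CPM in the knockout, and the other 7 differ by small steps.

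Levels were compared between genes only per length, as wildtype CPM per kilobase of transcript. The 37 structural subunits had a median of 56.1 CPM per kilobase and the 7 assembly factors 13.0. Over coding length the medians were 123 and 33.5 CPM per coding kilobase, so the order was the same on either length. The highest levels per transcript length were those of NDUFS5 (197 ± 35.0), NDUFAB1 (166 ± 21.9), NDUFB9 (150 ± 30.5) and NDUFV2 (138 ± 21.7; SD, n = 3), and each overlapped the next in its spread. The lowest was NDUFAF5 at 8.50 ± 0.23. NDUFC2 ranked 29 of 45 by transcript length, at 41.4 ± 3.55, but had 292 ± 25.0 CPM per coding kilobase because its annotated transcript is long. The order within the subunits therefore depended on the length taken, and NDUFA4, with 73.6 per kilobase of transcript, was highest per coding kilobase at 645.

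The median of the members differed more among the wildtype libraries than among the knockout libraries. Wildtype replicate 2 was the highest of the wildtype libraries in 40 of the 45 genes (88.9%), against 43.1% of all tested genes. It was the lowest in 4.44% of the members and in 46.1% of all tested genes, so it was often extreme in either direction. The median transcript length was 991 bases for the members and 2731 for all tested genes. The part of length in this order was not tested. Wildtype replicate 3 was the lowest in 35 (77.8%), against 36.7%. As the median over members of the difference from the wildtype mean in log2 CPM, the wildtype libraries stood at -0.06, 0.19 and -0.13 and the knockout libraries at 0.04, 0.13 and 0.10. The medians of all tested genes stayed between -0.03 and 0.01. The 45 genes summed to 2977, 3544 and 2846 CPM in wildtype and 3243, 3360 and 3369 CPM in the knockout, so the groups overlapped, with wildtype replicate 2 above every knockout library.

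Without wildtype replicate 2, 10 members were called higher by edgeR and none lower, and the member median was 0.20. In that fit 10.6% of all genes were called higher and 22.1% in either direction. The 10 were NDUFA8, NDUFA12, NDUFAB1, NDUFAF7, NDUFB4, NDUFC2, NDUFS5, NDUFS6, NDUFV2 and NDUFV3. Wildtype replicate 2 was the highest wildtype library in each of them. Leaving it out lowers their wildtype means and so raises their fold changes. For the members beyond NDUFC2, the fit therefore cannot tell a rise in the knockout from the removal of a high library. After NDUFC2 (0.63, adjusted p = 0.000489), NDUFS6 was largest at 0.41 (± 0.09 SE, adjusted p = 0.00847 by edgeR). Without wildtype replicate 3, by contrast, 24 members were above 0, 21 below and 0 called, with a median of 0.03. Fits without wildtype replicate 1, knockout replicate 1 or knockout replicate 3 called 0 members, and the fit without knockout replicate 2 called NDUFC2.

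**Figure D3:**
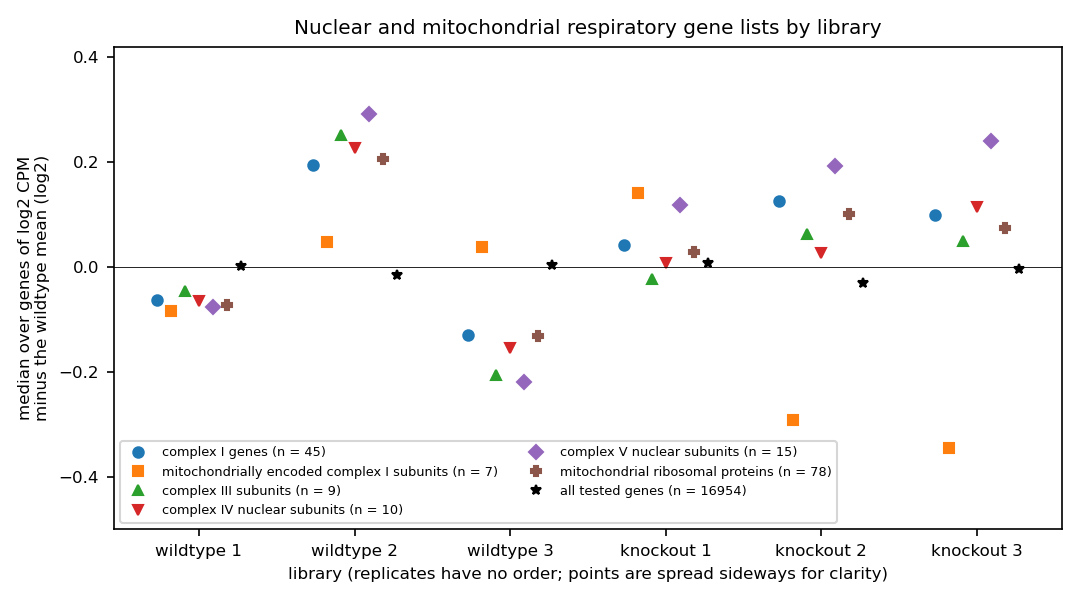
Median over the genes of each list of log2 CPM minus the wildtype mean, in each of the 6 libraries, with the number of genes in the legend. The nuclear lists share the high point of wildtype replicate 2 and the low point of wildtype replicate 3, complex I at 0.19 and -0.13, while the mitochondrially encoded subunits reach -0.29 and -0.34 in knockout replicates 2 and 3.

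The 7 complex I subunits encoded by mitochondrial DNA, which form the proton-pumping core, had another order of libraries than the nuclear genes. None was called by edgeR, DESeq2 or limma, none had an unadjusted p under 0.05, 5 of 7 had a log2 fold change below 0, and the median was -0.10. MT-ND5, the most distal pump, had 421, 252 and 464 CPM in wildtype and 382, 262 and 219 CPM in the knockout (log2 fold change -0.40 ± 0.26 SE, adjusted p = 0.494 by edgeR). MT-ND3 had 128, 225 and 99.4 CPM against 144, 177 and 176 CPM. Wildtype replicate 2 was thus lowest of its group in MT-ND5 and highest in MT-ND3, and the groups overlapped in all 7. Without wildtype replicate 2, its highest wildtype library, MT-ND3 was called higher (0.55 ± 0.13 SE, adjusted p = 0.0129 by edgeR).

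With all 6 libraries, the other lists of the respiratory chain gave no calls by edgeR, DESeq2 or limma. At an unadjusted p under 0.05, edgeR gave 1 of the further assembly factors, 3 ribosomal proteins and 2 iron-sulfur genes. It gave none of complexes II to V, and 16.5% of all tested genes reached that cut-off. Among 13 further assembly factors, whose median was 0.06, TMEM126A had all knockout libraries above wildtype, with 25.1, 28.5 and 21.4 against 29.3, 33.6 and 34.3 CPM (log2 fold change 0.37 ± 0.13 SE, adjusted p = 0.167 by edgeR). The medians were 0.08 for 8 genes of complex II, 0.00 for 9 of complex III, 0.04 for 10 of complex IV and 0.16 for 15 of complex V. The member with the smallest p-value was SDHC in complex II (-0.24), UQCRH in complex III (0.11), COX4I1 in complex IV (-0.28) and ATP5G2 in complex V (0.26). The 78 mitochondrial ribosomal proteins had a median of 0.04, and MRPL41 was nearest to a call at 0.41 (± 0.12 SE, adjusted p = 0.0899 by edgeR). Without wildtype replicate 2, edgeR called 10.6% of all genes higher. These included 9 of the 15 complex V genes, ATP5G2 among them, and 21 of the 78 ribosomal proteins, MRPL41 among them. In that fit edgeR also called higher 2 of the 13 assembly factors (TIMMDC1 and TMEM126A). It called 1 gene each of complexes III (UQCRH) and IV (COX7A2), and none of complex II. In each of these lists wildtype replicate 2 had the highest median of the wildtype libraries. Leaving it out thus tends to raise their fold changes, whatever the knockout does. MRPL41 was also called with chromosome medians removed (edgeR adjusted p = 0.0495). The complex I median of 0.08, with all libraries, lay within the range of these nuclear lists. The 13 iron-sulfur assembly genes, which make the clusters the matrix arm carries, had a median of 0.08 and 0 calls, with IBA57 at -0.56 (± 0.17 SE, adjusted p = 0.0935 by edgeR). IBA57 was called lower without wildtype replicate 2 (edgeR adjusted p = 0.00115) and with no filter on low counts (0.0335). NFU1 was called higher without wildtype replicate 2. That library was the lowest of the wildtype in IBA57 and the highest in NFU1.

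Of 14 regulators of mitochondrial biogenesis, 1 fell and none rose, where edgeR called 2.95% of all tested genes lower and 1.51% higher. Without wildtype replicate 2, 4 were called lower by edgeR, in a fit that called 22.1% of all genes in either direction. Wildtype replicate 2 was the lowest wildtype library in each of the 4. PPARGC1A, the coactivator of respiratory gene transcription, was low throughout, at 1.10, 0.97 and 1.07 CPM in wildtype and at 0.46, 0.31 and 0.29 CPM in the knockout, with 3 counts worth 0.109 to 0.161 CPM. It fell by 1.58 on the log2 scale (± 0.38 SE, adjusted p = 0.0392 by edgeR). It kept its direction but lost the call in each fit without 1 library except that without wildtype replicate 2, with edgeR adjusted p from 0.0893 to 0.226. DESeq2's Wald test did not call it either (adjusted p = 0.0845). YY1, whose letters were found in 11 of 39 members, had 149, 150 and 142 CPM against 127, 133 and 133 CPM. All knockout libraries were lower, and it was not called (-0.17 ± 0.11 SE, adjusted p = 0.477 by edgeR). With chromosome medians removed it was at 0.02. NRF1 had 22.7, 23.4 and 23.9 CPM against 23.6, 24.7 and 21.7 CPM, which overlapped. YY1 and NRF1 are named here after their values were seen, because of the letters above.

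NDUFC2 lies on the long arm of chromosome 11, and its neighbourhood was looked at because it was the called member. The 572 tested genes of that chromosome had a median log2 fold change of 0.09, and with chromosome medians removed NDUFC2 was at 0.49 (edgeR adjusted p = 0.0278). Among the 5 tested genes on each side in chromosome order, 3 were called higher and none lower, against 1.51% of all genes higher. The 3 were GAB2, KCTD21 and NDUFC2-KCTD14, and the last overlaps NDUFC2 and is described below. GAB2, a docking protein of growth factor signalling, rose from 41.4, 43.9 and 41.6 CPM to 65.3, 63.1 and 62.9 CPM (0.59 ± 0.10 SE, adjusted p = 0.00388 by edgeR) and was called in each of 19 alternatives. KCTD21, an adaptor of a ubiquitin ligase, rose from 6.88, 6.91 and 7.34 CPM to 10.6, 10.7 and 11.1 CPM (0.62 ± 0.16 SE, adjusted p = 0.0464 by edgeR), and was not called in 9 of the 19. Both groups were clear of each other in GAB2 and KCTD21.

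USP35, a deubiquitinase gene between these, had 8.77, 5.72 and 9.11 CPM against 14.9, 9.52 and 14.0 CPM, which did not overlap (0.71 ± 0.22 SE, adjusted p = 0.118 by edgeR), and 5 of the 19 alternatives called it higher. ALG8, a glucosyltransferase of N-glycan synthesis and the next gene after NDUFC2 on that side, was at 0.23 with overlapping groups. It was called without wildtype replicate 2, its highest wildtype library (0.38, edgeR adjusted p = 0.0165). On the other side INTS4 was at 0.09, AAMDC at 0.03, AP000580.1 at -0.09 and KCTD14 at 0.46, the last at under 1 CPM, none of them called. NARS2, just past GAB2, was at 0.05.

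The read-through gene NDUFC2-KCTD14, which overlaps NDUFC2, was also called, with counts of 10, 0 and 0 in wildtype against 25, 40 and 44 (edgeR adjusted p = 0.0363). Summed over libraries that is 10 against 109 counts, a depth-scaled ratio of 10.6 (95% interval 5.55 to 22.7, counting error only). Reads of the shared exons can belong to either gene, and the sources used here do not give how the counting divided them. Its counts are few beside the 1823 to 4172 of NDUFC2, and 10 of 19 alternatives did not call it.

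**Figure D4:**
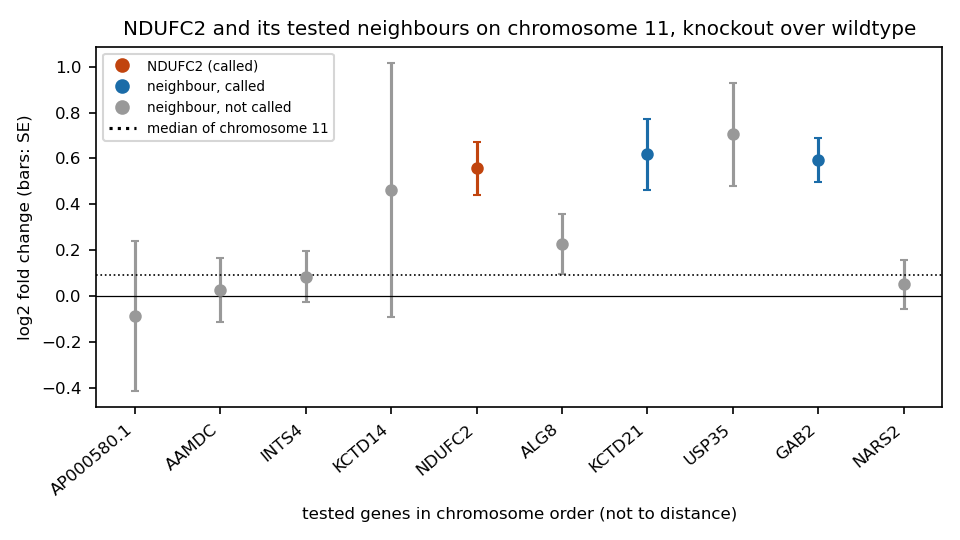
Log2 fold change with its standard error for NDUFC2 and 9 of its tested neighbours in chromosome order, knockout over wildtype; NDUFC2-KCTD14 is left out because it overlaps NDUFC2, and distances are not to scale. NDUFC2, KCTD21 and GAB2 were called at 0.56, 0.62 and 0.59, with ALG8 at 0.23 between them.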

How the data were processed

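Gene expression was measured in 3 wildtype and 3 DEGS1 knockout HAP1 libraries. Per the labels' protocols, cells were collected 24 h after passage in 5% serum, and stranded libraries were made from 1 ug of total RNA and read as single 75-nt reads. The authors deposited whole-number read counts per gene symbol. The build hg19 and bcl2fastq 2.20 are named per the submitters' processing notes. For the aligner, counter, annotation and strand setting nothing is given in the sources used here, and genes that overlap or have near-identical copies are uncertain.

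The counts went into edgeR 4.0.16 under R 4.3.3 (trimmed mean of M values, edgeR's expression filter, robust quasi-likelihood F test on genotype alone). Calls needed a Benjamini-Hochberg adjusted p under 0.05 over 16954 genes. The SE was derived from the log2 fold change and F. The floor was 3 counts. The biological coefficient of variation was 16.4%. No replicate pair agreed within sampling noise (chi-square per degree of freedom 11.7 to 48.2). The pipeline was tested on simulated data.

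Alternatives were DESeq2 1.42.0 (size factors, Wald test), limma 3.58.1 voom, other scalings and filters, a replicate block, removal of length and GC trends or chromosome medians, each library left out, and a threshold of 0.01. GENCODE release 29 and RefSeq GRCh38.p14 gave lengths, gene order and promoters only. The members and lists were chosen with earlier results of these data known. Named members were those called, those with the 3 smallest p-values in each role, those whose groups did not overlap, and the extremes of fold change. Each comparison list added its called genes or its smallest p, and each called member its 5 tested neighbours on either side. Other genes were named after their values were seen. The values of 1 member are not reported here, though it is in the counts and medians.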

Additional observations from a re-analysis of the deposited data

How the results depend on the processing

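The median log2 fold change of the members stayed above 0 in the main result and in 18 alternatives, from 0.03 to 0.20. NDUFC2 was the 1 member called under each other scaling, filter and tool and with length and GC trends or chromosome medians removed. At a threshold of 0.01 the count of members called was 0, with NDUFC2 at 0.56. With 1 library left out it ran from 0 to 10, and NDUFC2 from 0.51 to 0.63. With the replicate block 1082 genes were called against 756 without it, the member median was 0.09, and NDUFC2 was at 0.56. With the block and the length and GC trend removed 1181 genes were called. The member median was then 0.14 and that of all tested genes 0.05, against 0.08 and -0.02 in the main fit. Deviations of same-numbered libraries correlated at 0.22, 0.31 and -0.13. The main fit did not take the numbers as pairs, but so few correlations cannot decide whether the libraries were paired. Same-numbered libraries also share a code in their labels, and what the code stands for is not given in the labels. Not every library correlated best with its own number. The SE of NDUFC2 was 0.11, and a log2 difference of 0.1 is smaller than that.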

Other observations

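Beside the 45 members, the table held 61 further symbols that start with NDUF, most of them pseudogenes. Of these 29 had no counts, 56 had a total under 50 over the 6 libraries, and 5 were tested. The most abundant was NDUFV2P1, a pseudogene of NDUFV2, with counts of 133, 171 and 80 in wildtype against 81, 171 and 175. NDUFA9P1 had 61, 15 and 60 counts against 23, 27 and 30, and NDUFA4L2, a paralog of NDUFA4, had 37, 12 and 33 against 30, 26 and 42. These totals were small beside those of the parent genes.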
